A study of Mus musculus with 28 samples.

Results

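The 9 genes *P2ry12*, *P2ry13*, *Tmem119*, *Cx3cr1*, *Siglech*, *Olfml3*, *Gpr34*, *Selplg* and *Sparc* belong to the homeostatic signature of microglia. They were taken by symbol from a table of 48587 genes. All 9 were counted in every library, with 24846 reads at the least (*P2ry13*) and 362094 at the most (*P2ry12*), and all 9 passed the filter on low counts. The table holds 28 libraries, each of microglia that were sorted as viable CD11b+CD45low cells, with a dump gate that held Ly6C and Ly6G among others, from the hippocampus of 1 male mouse aged 16 weeks on a C57BL/6J background. The 5xFAD mice were heterozygous for human APP and PS1 with familial Alzheimer mutations under the neuronal Thy-1 promoter, and their WT controls were littermates without the transgene. The 6 groups were 5 SPF WT, 3 SPF 5xFAD, 4 GF WT, 5 GF 5xFAD, 5 ABX WT and 6 ABX 5xFAD mice. SPF mice carried a specific pathogen-free microbiota, GF mice were reared germ-free at another site, so that housing and source cannot be told apart, and ABX mice were SPF mice that drank vancomycin, cefoxitin, gentamicin and metronidazole for 8 weeks.

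Microglia are the resident macrophages of the brain. In the healthy adult tissue they hold a surveillant state that is marked by surface receptors for nucleotides, chemokines and lipids and by a few secreted matrix proteins. Around amyloid plaques, microglia are known to lower many of these genes while genes such as *Apoe*, *Cst7* and *Itgax* rise. Among the 9 genes, *P2ry12* and *P2ry13* encode Gi-coupled receptors for ADP, and P2RY12 steers microglial processes towards injured cells. *Cx3cr1* encodes the receptor for the neuronal chemokine fractalkine, and *Gpr34* a receptor for lysophosphatidylserine. *Siglech* encodes a sialic acid-binding lectin that signals through the adaptor DAP12, and *Selplg* the selectin ligand PSGL-1. *Tmem119* encodes a transmembrane protein that is widely used as a microglial marker, while *Olfml3* and *Sparc* encode secreted matrix proteins.

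Several members are neighbours in the genome. On GRCm38, *P2ry13* (chr3:59207892-59210882, minus strand) lies beside *P2ry12* (chr3:59216272-59262871, minus strand), and both lie inside the span of *Med12l* on the other strand. *Tmem119* (chr5:113793729-113800516) and *Selplg* (chr5:113818536-113832644) follow each other on the minus strand of chromosome 5. *Gpr34* (chrX:13632089-13640858, plus strand) lies inside *Cask*, and the remaining members are *Siglech* (chr7:55768178-55778925, plus), *Cx3cr1* (chr9:119901616-120068283, minus), *Olfml3* (chr3:103722222-103738001, minus) and *Sparc* (chr11:55394500-55420080, minus). The libraries do not mark the strand, but *P2ry12* shares only 9 exon bases with *Med12l*, 0.354 percent of its exons, and no other member shares an exon base with another gene. *Med12l* had 58.8 to 143 CPM over the 28 mice (CPM is the read count scaled to an equal library size).

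The stretch of 250 bases before the RefSeq start was searched on both strands for AGGAAGT (the core bound by PU.1, the lineage factor of macrophages), CAGAC (bound by SMAD factors of TGF-beta signalling), TGANTCA (AP-1) and TATTTTTA (MEF2). RefSeq promoter windows on GRCm38.p6 were at hand for 6 of the 9 genes, namely *P2ry12*, *P2ry13*, *Cx3cr1*, *Siglech*, *Olfml3* and *Sparc*, and not for *Tmem119*, *Gpr34* and *Selplg*. The windows of the 2 ADP receptors, whose transcripts were lower in 5xFAD mice in every condition, are shown with those of *Siglech* and *Olfml3*, which passed the edgeR test in no comparison. Each is given 5′ to 3′ on the strand of its gene and ends at the base before the RefSeq start, with matches in capitals. That start is the one of the gene span given above for *P2ry13* and *Olfml3*, lies 114 bases upstream of it for *P2ry12* and 6 bases inside it for *Siglech*.
P2ry12, chr3:59262986-59263235, minus strand: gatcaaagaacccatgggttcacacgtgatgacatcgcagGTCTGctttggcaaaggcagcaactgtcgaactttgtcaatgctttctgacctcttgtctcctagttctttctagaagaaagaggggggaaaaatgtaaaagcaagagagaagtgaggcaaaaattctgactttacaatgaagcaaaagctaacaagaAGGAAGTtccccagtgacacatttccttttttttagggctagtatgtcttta
P2ry13, chr3:59210883-59211132, minus strand: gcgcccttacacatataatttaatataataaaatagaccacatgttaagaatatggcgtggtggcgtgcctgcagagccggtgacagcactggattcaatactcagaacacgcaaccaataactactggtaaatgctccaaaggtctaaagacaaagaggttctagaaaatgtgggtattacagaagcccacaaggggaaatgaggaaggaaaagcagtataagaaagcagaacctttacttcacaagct
Siglech, chr7:55767934-55768183, plus strand: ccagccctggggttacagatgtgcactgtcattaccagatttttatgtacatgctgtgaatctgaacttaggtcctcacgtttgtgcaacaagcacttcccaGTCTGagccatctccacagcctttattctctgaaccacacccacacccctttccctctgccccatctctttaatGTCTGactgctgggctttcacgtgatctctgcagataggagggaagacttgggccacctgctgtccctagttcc
Olfml3, chr3:103738002-103738251, minus strand: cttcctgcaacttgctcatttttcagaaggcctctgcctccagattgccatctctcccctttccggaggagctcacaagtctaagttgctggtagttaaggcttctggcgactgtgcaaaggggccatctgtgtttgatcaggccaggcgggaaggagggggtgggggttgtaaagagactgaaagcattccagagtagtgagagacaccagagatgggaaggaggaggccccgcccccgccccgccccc

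The *P2ry12* window held the PU.1 letters 52 bases before the RefSeq start and the SMAD letters 210 bases before it. *Siglech* held the SMAD letters at 148 and 74 bases before the start, *Cx3cr1* at 226 and *Sparc* at 35, and the windows of *P2ry13* and *Olfml3* held none of the 4 motifs. Of 32851 windows of the same length, 7.69 percent held the PU.1 letters, 42.2 percent the SMAD letters, 6.75 percent the AP-1 letters and 2.45 percent the MEF2 letters. No AP-1 or MEF2 letters were found in the 6 windows.

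All libraries were of high depth, with 14441610 to 29977395 counted reads, and no 2 replicates were alike within sampling noise. As a check of the cell type, *Csf1r*, the growth factor receptor that microglia and other macrophages carry, had 11760 to 16570 CPM over the 28 mice, against at most 13.5 CPM for the neuronal gene *Snap25* and 5.27 CPM for the astrocyte gene *Gfap*. Summed over their lists, neuronal markers reached at most 19.3 CPM, astrocyte markers 153 to 327 CPM (98.4 percent of it *Slc1a3*), oligodendrocyte markers 153 to 221 CPM and endothelial markers 9.42 to 54.0 CPM (93.4 percent of it *Pecam1*). The sample descriptions take 2 forms, which nothing identifies as batches. One joins a running number to the number of the mouse and covers all SPF mice, all ABX WT mice and mouse FAD_ABX_1151, with 2 of its running numbers used for a WT and a 5xFAD mouse alike. The other joins a running number to the group and covers the 9 GF and 5 further ABX 5xFAD mice. Single mice are named here by the titles of their libraries. Summed neutrophil markers reached 48.6 to 193 CPM in the 3 SPF 5xFAD mice and 105 CPM in mouse FAD_ABX_1151, against at most 0.774 CPM in the other 24 mice, although the dump gate held Ly6G. Border macrophage markers summed to between 277 and 859 CPM, with *Cd163* and *Lyve1* at 0 in all SPF WT and ABX WT mice and detected in each of the other groups. In GF mice, border macrophage markers summed to 308 to 586 CPM in 5xFAD against 646 to 793 CPM in WT mice, with 91.3 percent of the sum over all mice from *Stab1*, astrocyte markers to 153 to 188 against 228.8 to 298 CPM and endothelial markers to 9.42 to 21.5 against 28.6 to 35.5 CPM, so that all 3 lists were lower in GF 5xFAD mice without overlap. Without overlap too, monocyte markers were higher in SPF 5xFAD (19.9 to 39.4 CPM) than SPF WT mice (6.34 to 8.42 CPM) and in ABX 5xFAD (15.4 to 54.6 CPM) than ABX WT mice (2.08 to 9.05 CPM), border macrophage markers higher in ABX 5xFAD (582 to 859 CPM) than ABX WT mice (403 to 579.5 CPM), endothelial markers lower in SPF 5xFAD (23.9 to 29.8 CPM) than SPF WT mice (30.9 to 44.1 CPM), and T cell markers higher in SPF 5xFAD (0.594 to 0.757 CPM) than SPF WT mice (at most 0.132 CPM). Called higher in 5xFAD than in WT mice were 5 of the 8 border macrophage markers under SPF and 7 of the 8 under ABX conditions, beside 3.73 and 9.45 percent of all genes. Under GF conditions 1 of the 8 was called lower, beside 6.2 percent of all genes. Of microglial markers, *Csf1r*, *C1qa*, *C1qb*, *Aif1*, *Itgam*, *Fcrls* and *Sall1* were summed as well. These 7 reached 30780 to 31190 CPM in SPF 5xFAD against 31400 to 32980 CPM in SPF WT mice, without overlap, and *Fcrls* was called lower. The part of these lists in the results was not tested. Apart from mouse FAD_ABX_1151, the ABX 5xFAD and ABX WT mice differ in the form of their descriptions, and there genotype and form cannot be told apart.

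Mouse FAD_GF_201 is a 5xFAD mouse by title and genotype and a WT mouse by its description, and was kept in the GF 5xFAD group. Its *Cst7* level was 774 CPM, against 1336 to 1652 CPM in the other 4 GF 5xFAD mice and 5.65 to 17.0 CPM in GF WT mice. *Clec7a* lay between the groups in the same way, at 305 CPM against 440.01 to 529 and 21.6 to 35.2 CPM. Its levels of *P2ry12*, *P2ry13*, *Tmem119*, *Cx3cr1*, *Gpr34* and *Selplg* likewise lay above those of all other GF 5xFAD mice and below those of all GF WT mice. Without it, the log2 fold changes of GF 5xFAD against GF WT mice were -0.71 for *P2ry12* (adjusted p = 8.83e-06), -0.72 for *P2ry13* (adjusted p = 4.58e-05), -0.60 for *Cx3cr1* (adjusted p = 4.22e-05) and -0.30 for *Selplg* (adjusted p = 0.0172), against -0.62, -0.64, -0.57 and -0.28 with it.

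The 9 genes were among the most abundant transcripts of these cells. Per kilobase of exon, their mean CPM over the 28 mice ranked between 9 and 55 of the 15298 genes tested. By the median of this length-scaled level *P2ry12* was highest at 3114 CPM per kb, followed by *Tmem119* at 1917, *Sparc* at 1558, *Gpr34* at 1477, *Selplg* at 1473, *Cx3cr1* at 1460.4, *P2ry13* at 953, *Siglech* at 751 and *Olfml3* at 542. *P2ry12* exceeded its neighbour *P2ry13* in length-scaled level by a ratio of 2.98 ± 0.22 (SD, n = 5) in SPF WT and 3.05 ± 0.186 (n = 3) in SPF 5xFAD mice. The ratio was 3.36 ± 0.146 (n = 4) in GF WT, 3.40 ± 0.307 (n = 5) in GF 5xFAD, 3.38 ± 0.256 (n = 5) in ABX WT and 3.18 ± 0.209 (n = 6) in ABX 5xFAD mice. The spread between mice differed widely, since the highest mouse exceeded the lowest 2.81-fold for *P2ry13* and 2.68-fold for *P2ry12*, but 1.49-fold for *Siglech*, 1.40-fold for *Olfml3* and 1.35-fold for *Sparc*. Together the 9 genes took 4.66 ± 0.227 percent (SD, n = 5) of all reads in SPF WT mice and 3.66 ± 0.168 percent (n = 3) in SPF 5xFAD mice. The share was 4.54 ± 0.0667 percent (n = 4) against 3.27 ± 0.274 percent (n = 5) in GF mice and 4.81 ± 0.226 percent (n = 5) against 3.74 ± 0.204 percent (n = 6) in ABX mice.

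**Figure D1:**
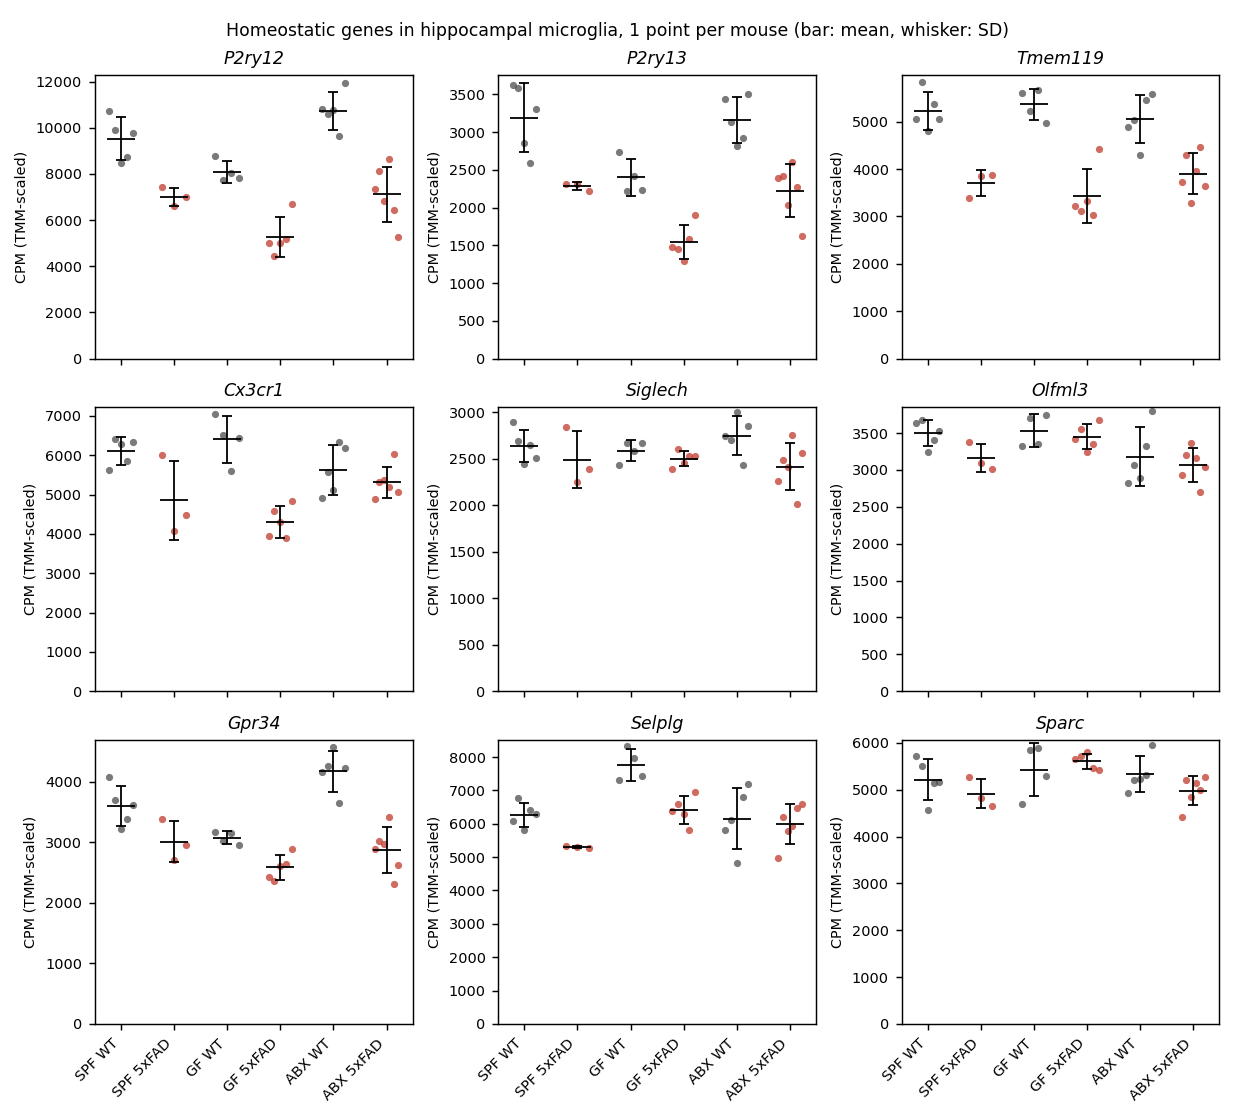
CPM (scaled by TMM) of the 9 homeostatic genes, 1 panel per gene with an axis from 0, for the 6 groups. Points are mice (grey WT, red 5xFAD), bars are means and whiskers SDs. The red points of *P2ry12*, *P2ry13* and *Tmem119* sit below the grey points of the same condition apart from 1 ABX 5xFAD mouse for *Tmem119*, while *Siglech*, *Olfml3* and *Sparc* overlap in every condition.

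To examine how amyloidosis changed the homeostatic genes, 5xFAD mice were compared to WT mice within each condition. *P2ry12*, *P2ry13* and *Tmem119* were lower in 5xFAD mice under SPF, GF and ABX conditions alike. In SPF mice these were the only genes of the 9 that passed the test, 3 of 9 (edgeR, adjusted p under 0.05), where 0.837 percent of all genes tested were called lower. In GF mice 5 of 9 were lower, with *Cx3cr1* and *Selplg* added, against 6.2 percent of all genes. In ABX mice 4 of 9 were lower, with *Gpr34* added, against 4.98 percent of all genes. None of the 9 rose in any of the 3 comparisons. Over the 9 genes the median log2 fold change came to -0.26 under SPF, -0.28 under GF and -0.19 under ABX conditions, beside -0.03, -0.03 and -0.01 for all genes. Fewer microglia carrying a transcript and less transcript per cell cannot be told apart in such bulk libraries.

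**Figure D2:**
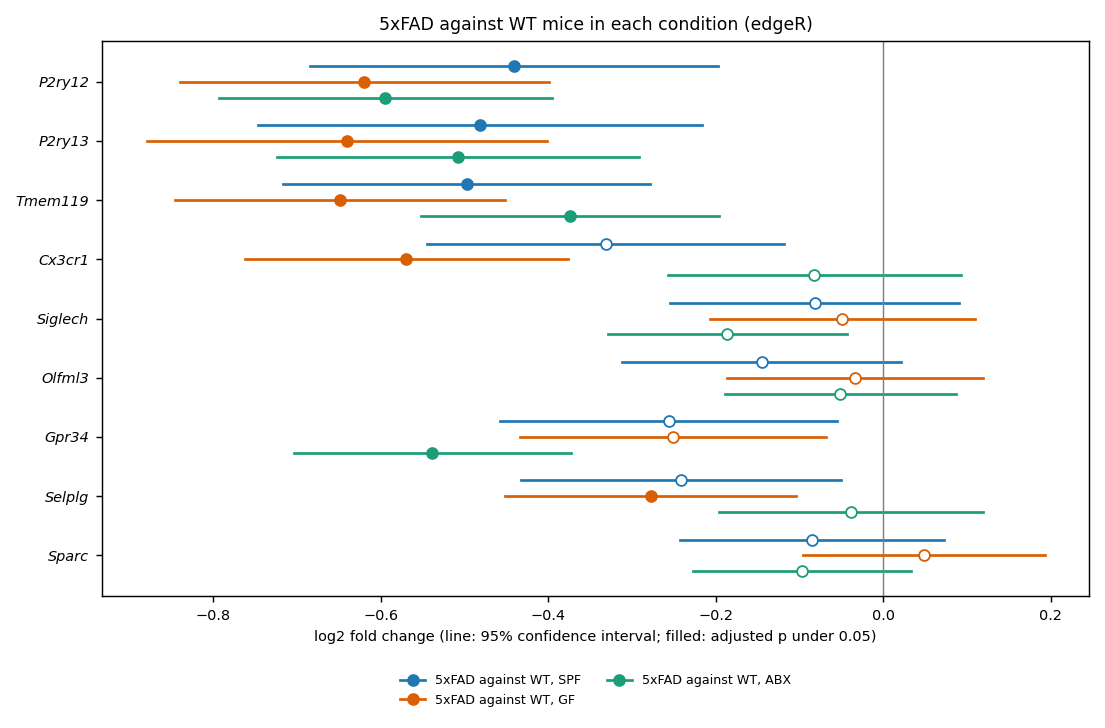
Log2 fold change of each homeostatic gene in 5xFAD against WT mice under SPF (blue), GF (orange) and ABX (green) conditions, with 95% confidence intervals as lines. Filled points passed an adjusted p of 0.05 in edgeR. *P2ry12*, *P2ry13* and *Tmem119* are filled on the left of 0 in all 3 conditions, and *Siglech*, *Olfml3* and *Sparc* are open in all 3.

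*P2ry12*, the ADP receptor of microglial processes, had 10737, 9908, 8469, 8724 and 9778 CPM in SPF WT mice and 7415, 6631 and 7001 CPM in SPF 5xFAD mice. In GF mice it had 8779, 7750.2, 8032 and 7825 CPM in WT and 4992, 4457, 5018, 5175 and 6705 CPM in 5xFAD mice. All 3 SPF and all 5 GF 5xFAD mice thus lay below every WT mouse of their condition. ABX WT mice had 10806, 10580, 10781, 9623.5 and 11931 CPM, and ABX 5xFAD mice ranged from 5285 over a median of 7102 to 8654 CPM, again with no overlap. The log2 fold change was -0.44 ± 0.12 (SE; adjusted p = 0.0255) in SPF, -0.62 ± 0.11 (adjusted p = 0.000109) in GF and -0.59 ± 0.10 (adjusted p = 6.16e-05) in ABX mice, a change of -26.3, -34.9 and -33.8 percent. In SPF mice the call was lost without any one of WT_SPF_912, WT_SPF_925, FAD_SPF_1144, FAD_SPF_1146 and FAD_SPF_1148, with adjusted p-values of 0.0545 to 0.161 and log2 fold changes of -0.48 to -0.39, and with gene length offsets (-0.41, adjusted p = 0.0527). With offsets for GC content, the ABX difference shrank to -0.34 (adjusted p = 0.0033), and *P2ry12* is a gene of low GC content (38.6 percent).

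*P2ry13*, the second ADP receptor, was lower in 5xFAD mice in each condition too. SPF WT mice had 3623, 3584.5, 2851, 2589 and 3303 CPM and SPF 5xFAD mice 2308, 2318 and 2226 CPM. GF WT mice had 2743, 2217, 2421 and 2233.5 CPM and GF 5xFAD mice 1476, 1456, 1291, 1584 and 1904 CPM. No 5xFAD mouse reached the lowest WT mouse of its condition. This held for ABX mice too, with 3441, 3131, 2814, 2927 and 3509 CPM in WT and 1618.5 to 2603 CPM, with a median of 2335, in 5xFAD mice. *P2ry13* fell by 0.48 ± 0.13 on the log2 scale (adjusted p = 0.0245) in SPF, by 0.64 ± 0.12 (adjusted p = 0.000207) in GF and by 0.51 ± 0.11 (adjusted p = 0.00113) in ABX mice. The SPF call was lost without the same 5 mice as that of *P2ry12*, with adjusted p-values of 0.0685 to 0.133 and log2 fold changes of -0.48 to -0.43, and with gene length offsets (-0.45, adjusted p = 0.0571).

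*Tmem119*, the marker of resident microglia, had 5045, 5844, 4799.9, 5375 and 5059 CPM in SPF WT and 3389.9, 3849 and 3864 CPM in SPF 5xFAD mice. In GF WT mice it had 5607, 5222, 5669 and 4975 CPM, and in GF 5xFAD mice 3213, 3119.9, 3331, 3033 and 4421 CPM, the last being FAD_GF_201. The groups did not overlap in either condition. ABX WT mice had 4878, 5027, 4304, 5448.5 and 5589 CPM and ABX 5xFAD mice 3293 to 4456 CPM with a median of 3849, so that 1 ABX 5xFAD mouse exceeded the lowest ABX WT mouse. The log2 fold change was -0.50 ± 0.11 (adjusted p = 0.00335) in SPF, -0.65 ± 0.10 (adjusted p = 1.31e-05) in GF and -0.37 ± 0.09 (adjusted p = 0.00349) in ABX mice. Without mouse FAD_SPF_1144 the SPF adjusted p was 0.0527, and without mouse FAD_GF_201 the GF difference was -0.75. *Tmem119* is the member of highest GC content (59.1 percent), and GC offsets moved its ABX difference to -0.55.

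*Cx3cr1*, the fractalkine receptor, was called lower under GF conditions. GF WT mice had 7060.3, 6522, 5589 and 6428.5 CPM and GF 5xFAD mice 3936, 4582, 4307, 3898 and 4842 CPM, a fall by 0.57 ± 0.09 on the log2 scale (adjusted p = 5.93e-05) with no overlap. SPF WT mice had 5614, 6425, 6291, 5844 and 6345.5 CPM and SPF 5xFAD mice 5993, 4077 and 4483 CPM, with mouse FAD_SPF_1144 inside the WT range. The SPF log2 fold change of -0.33 ± 0.10 missed the threshold (adjusted p = 0.0664) and was -0.51 (adjusted p = 0.00304) without mouse FAD_SPF_1144 but -0.21 (adjusted p = 0.462) without mouse FAD_SPF_1146. It passed in 5 of 38 alternatives, among them library totals alone (adjusted p = 0.0189), gene length offsets (0.0477) and GC offsets (0.0393). ABX WT mice had 4904, 5569.8, 5109, 6327 and 6183 CPM and ABX 5xFAD mice 4891 to 6026 CPM with a median of 5250.5. These ranges overlapped almost fully, and the log2 fold change was -0.08 with a 95% confidence interval from -0.26 to 0.09 (adjusted p = 0.588).

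*Gpr34*, the lysophosphatidylserine receptor, gave its largest difference under ABX. ABX WT mice had 4158, 4257, 4577, 3644 and 4220.3 CPM and ABX 5xFAD mice 2312 to 3415 CPM with a median of 2935.5, with no overlap. The fall was 0.54 ± 0.08 on the log2 scale (adjusted p = 1.74e-05), or 0.24 (-0.24, adjusted p = 0.0084) with GC offsets, *Gpr34* having the lowest GC content of the 9 genes (37.1 percent). GF WT mice had 3174, 3020.5, 3154 and 2949 CPM and GF 5xFAD mice 2421, 2352, 2610.1, 2634 and 2896 CPM, which did not overlap either. The GF log2 fold change was -0.25 ± 0.09 (adjusted p = 0.0541), and it passed in 13 of 38 alternatives, among them with gene length offsets (-0.35, adjusted p = 0.00706) and without mouse FAD_GF_201 (-0.29, adjusted p = 0.0338) or a single mouse of other groups. In SPF mice, with 4075, 3698, 3216, 3382.5 and 3608 CPM in WT and 3382, 2703 and 2948.5 CPM in 5xFAD mice, it was -0.26 ± 0.10 (adjusted p = 0.17).

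*Selplg*, the gene of PSGL-1, had 7303, 8342, 7963 and 7446 CPM in GF WT and 6385, 6597, 6281, 5816 and 6944 CPM in GF 5xFAD mice. These did not overlap, and the log2 fold change was -0.28 ± 0.08 (adjusted p = 0.0237). The call was lost without mouse WT_GF_229 (adjusted p = 0.0861) and without mouse FAD_GF_184 (adjusted p = 0.0501) or FAD_GF_185 (adjusted p = 0.0762). SPF 5xFAD mice, at 5334, 5298 and 5285 CPM, all lay below SPF WT mice, at 6088, 6765, 5803, 6402 and 6305 CPM, with a log2 fold change of -0.24 ± 0.09 (adjusted p = 0.175). This SPF difference passed in 3 of 38 alternatives, among them only the groups compared (-0.23, adjusted p = 0.0222) and library totals alone (-0.29, adjusted p = 0.0473). In ABX mice the log2 fold change was -0.04 with an interval from -0.20 to 0.12 (adjusted p = 0.799).

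*Siglech*, *Olfml3* and *Sparc* stayed within narrow ranges. *Siglech* ranged from 2017.5 to 3003 CPM over the 28 mice, with log2 fold changes of -0.08 (95% confidence interval -0.26 to 0.09) in SPF, -0.05 (-0.21 to 0.11) in GF and -0.19 (-0.33 to -0.04; adjusted p = 0.0729) in ABX 5xFAD mice. *Olfml3* ranged from 2703 to 3796 CPM, with -0.15 (-0.31 to 0.02), -0.03 (-0.19 to 0.12) and -0.05 (-0.19 to 0.09). *Sparc* ranged from 4426 to 5963 CPM, with -0.09 (-0.24 to 0.07), 0.05 (-0.10 to 0.19) and -0.10 (-0.23 to 0.03). None of these 9 values passed the edgeR test with TMM scaling of all mice. In ABX mice *Siglech* passed in 5 of 38 alternatives, among them without mouse WT_ABX_923 (adjusted p = 0.0336) or FAD_ABX_1455 (adjusted p = 0.0301), and *Sparc* in 2, with GC offsets (-0.19, adjusted p = 0.0304) and with library totals alone (-0.18, adjusted p = 0.0365). The intervals in GF mice leave out a fall as large as the fitted ones of *P2ry12*, *P2ry13*, *Tmem119* and *Cx3cr1*. The direction of *Olfml3* and *Sparc* in GF mice turned with the processing, to 0.05 with gene length offsets for *Olfml3* and to -0.08 with library totals as the only scaling for *Sparc*, a scaling under which the median of all genes was -0.15.

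With the study's own tool, voomWithQualityWeights of limma, 7 of the 9 genes were lower in SPF 5xFAD mice, where 5.63 percent of all genes were called lower (862 genes, against 128 in edgeR). *Cx3cr1* (log2 fold change -0.47, adjusted p = 1.16e-05), *Olfml3* (-0.18, adjusted p = 0.0291), *Gpr34* (-0.30, adjusted p = 0.00148) and *Selplg* (-0.26, adjusted p = 0.00484) joined the 3 genes above. It also called *Gpr34* lower in GF (-0.25, adjusted p = 0.0439) and *Siglech* lower in ABX 5xFAD mice (-0.20, adjusted p = 0.0362). The weights of this tool ran from 0.308 for mouse FAD_ABX_1482 to 3.11 for mouse FAD_SPF_1148, and the other SPF 5xFAD mice had 0.606 (FAD_SPF_1144) and 2.23 (FAD_SPF_1146). Without mice FAD_ABX_1151 and FAD_ABX_1482, edgeR called 3, 5 and 4 of the 9 genes lower under SPF, GF and ABX conditions, the numbers found with all mice.

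Next, the size of the 5xFAD difference was compared between conditions. For GF against SPF mice and for ABX against SPF mice, 0 of the 9 genes and 0 percent of all genes passed the edgeR test, with 1304 and 1032 genes at an unadjusted p under 0.05. DESeq2 called 25 and 1 genes and voomWithQualityWeights 116 and 14. A larger or smaller loss of homeostatic transcripts in GF or ABX mice than in SPF mice was therefore not shown for any member. The log2 difference between ABX and SPF mice was -0.28 ± 0.13 for *Gpr34* (adjusted p = 0.726) and 0.25 ± 0.13 for *Cx3cr1* (adjusted p = 0.762). For ABX against GF mice, 1 gene passed, *Cx3cr1*, whose 5xFAD difference was less negative in ABX mice by 0.49 ± 0.13 on the log2 scale (adjusted p = 0.0452), against 0.915 percent of all genes called in this direction. This call stood close to the threshold and was lost in 19 of 38 alternatives, with adjusted p-values from 0.0157 to 0.106 and log2 differences from 0.44 to 0.56. It was lost with only the groups compared (adjusted p = 0.0518), with gene length offsets (adjusted p = 0.0501) and, at the most, without mouse WT_GF_199 (adjusted p = 0.106), and it held without mouse FAD_GF_201 (0.53, adjusted p = 0.0232).

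To see how the microbial condition itself moved these genes in the disease model, the 3 conditions were compared among 5xFAD mice. GF 5xFAD mice had the lowest means of all 6 groups for *P2ry12*, *P2ry13*, *Tmem119*, *Cx3cr1* and *Gpr34*, with 5269 ± 847 CPM of *P2ry12* (SD, n = 5) and 1542 ± 228 CPM of *P2ry13* (n = 5). In GF against SPF 5xFAD mice 2 of 9 genes were lower, beside 5.86 percent of all genes. *P2ry12* fell by 0.41 ± 0.12 on the log2 scale (adjusted p = 0.0194), with 4 of 5 GF mice below all SPF mice, and *P2ry13* by 0.57 ± 0.13 (adjusted p = 0.00466), with 5 of 5. Without mouse FAD_GF_201 the falls were 0.52 (log2 -0.52) for *P2ry12* and 0.66 (log2 -0.66) for *P2ry13*. The *P2ry12* call was lost without mouse FAD_SPF_1144 (adjusted p = 0.0743) or FAD_SPF_1148 (adjusted p = 0.0719) and with GC offsets, where the log2 fold change was -0.13 (adjusted p = 0.456), while *P2ry13* remained at -0.45 (adjusted p = 0.0142). *Selplg* and *Sparc* were higher in all 5 GF than in all 3 SPF 5xFAD mice, by 0.27 ± 0.09 (adjusted p = 0.0531) and 0.19 ± 0.08 (adjusted p = 0.105) in edgeR, and passed in voomWithQualityWeights with adjusted p-values of 0.00956 and 0.0116. *Selplg* passed in 10 of 38 alternatives in all, among them DESeq2 (adjusted p = 0.0363), 26 mice (adjusted p = 0.0291) and gene length offsets (adjusted p = 0.0384), and *Gpr34* was called lower with gene length offsets (-0.43, adjusted p = 0.00778), so that 4 of 9 genes passed with these offsets and 4 with voomWithQualityWeights. Of the 15298 genes tested, 1212 passed in either direction with these offsets and 3872 with voomWithQualityWeights. GF and SPF 5xFAD mice differ in site and in the form of their descriptions as well as in colonization, which cannot be told apart. Between these groups astrocyte markers (153 to 188 CPM in GF against 222 to 238 CPM in SPF 5xFAD mice), endothelial markers (9.42 to 21.5 against 23.9 to 29.8 CPM), neutrophil markers (at most 0.0495 against 48.6 to 193 CPM) and T cell markers (at most 0.168 against 0.594 to 0.757 CPM) were lower in GF mice without overlap. The 7 microglial markers *Csf1r*, *C1qa*, *C1qb*, *Aif1*, *Itgam*, *Fcrls* and *Sall1* summed to 33230 to 36260 CPM in GF and 30780 to 31190 CPM in SPF 5xFAD mice, with *Fcrls*, *C1qb* and *Aif1* called higher in GF mice and *Itgam* and *Sall1* lower. The part of these markers in the result was not tested.

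ABX 5xFAD mice stood above GF 5xFAD mice for 3 of 9 genes, beside 4.52 percent of all genes. *P2ry12* was higher by 0.43 ± 0.10 (log2; adjusted p = 0.00624), *P2ry13* by 0.53 ± 0.11 (adjusted p = 0.00263) and *Cx3cr1* by 0.30 ± 0.09 (adjusted p = 0.0235). All 6 ABX 5xFAD mice exceeded every GF 5xFAD mouse in *Cx3cr1*, as did 5 of 6 in *P2ry13* and 4 of 6 in *P2ry12*. In the other direction, all 6 lay below every GF 5xFAD mouse in *Sparc* (log2 fold change -0.17 ± 0.06, adjusted p = 0.08) and 5 of 6 in *Olfml3* (-0.17 ± 0.07, adjusted p = 0.101), neither of which passed. With gene length offsets 6 of the 9 genes passed, as *Tmem119* (0.30, adjusted p = 0.0483) and *Gpr34* (0.29, adjusted p = 0.0283) were called higher and *Olfml3* lower (-0.26, adjusted p = 0.0292). With these offsets 1254 of the 15298 genes tested passed in either direction. Astrocyte markers summed to 211 to 311 CPM in ABX against 153 to 188 CPM in GF 5xFAD mice. Of the markers of other cells that passed the low-count filter, 2 of 3 for neutrophils, 2 of 8 for border macrophages, 2 of 4 for astrocytes, 1 of 4 for monocytes and 1 of 1 for T cells were called higher in ABX mice. Of 7 microglial markers, *Fcrls*, *C1qa*, *C1qb* and *Aif1* were called lower and *Itgam* and *Sall1* higher. The part of these markers in the result was not tested. Without mouse FAD_GF_201 the differences were 0.54, 0.62 and 0.34. Without mouse FAD_ABX_1151 all these mice share 1 form of description, and the differences were 0.43 (adjusted p = 0.0144), 0.52 (adjusted p = 0.00699) and 0.33 (adjusted p = 0.024). With GC offsets *P2ry12* was higher by 0.26 (adjusted p = 0.0356). Its call was lost with only the groups compared (adjusted p = 0.0665), and that of *Cx3cr1* without mouse FAD_GF_181 (adjusted p = 0.0665), FAD_GF_185 (adjusted p = 0.0681) or FAD_ABX_1460 (adjusted p = 0.058). ABX and SPF 5xFAD mice differed in 0 of 9 genes and in 0 percent of all genes, with 1085 genes at an unadjusted p under 0.05, 8 called by DESeq2 and 134 by voomWithQualityWeights. The log2 fold changes of the 9 genes ran from -0.07 for *Gpr34* to 0.18 for *Selplg*, and that of *P2ry12* was 0.02 with an interval from -0.21 to 0.25. 

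**Figure D3:**
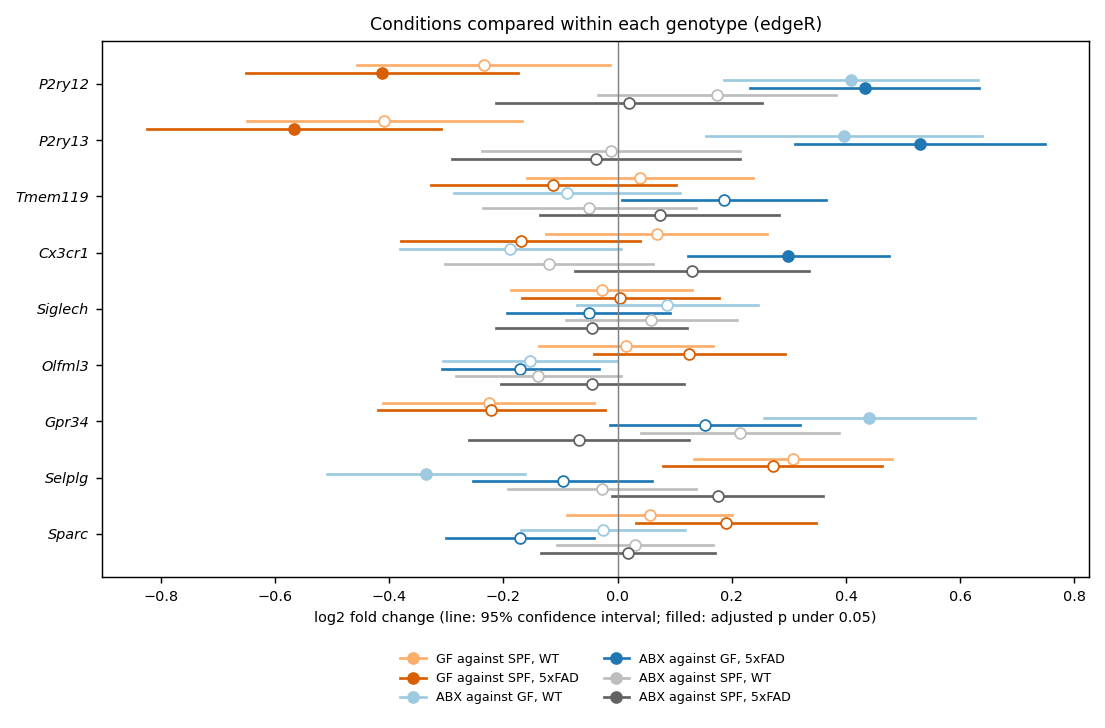
Log2 fold changes of the homeostatic genes between conditions, GF against SPF (orange), ABX against GF (blue) and ABX against SPF (grey), in WT (pale) and 5xFAD mice (dark), with 95% confidence intervals. Filled points passed an adjusted p of 0.05 in edgeR. *P2ry12* and *P2ry13* are filled left of 0 for GF against SPF 5xFAD mice and right of 0 for ABX against GF mice of both genotypes, and no grey point is filled.

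The same comparisons were made in WT mice, which carry no amyloid. In GF against SPF WT mice 0 of 9 genes passed in edgeR, where 1.62 percent of all genes were called in either direction. The closest were *Selplg*, higher in GF WT mice by 0.31 ± 0.08 (log2; adjusted p = 0.0585) with 4 of 4 above all SPF WT mice, and *P2ry13*, with a log2 fold change of -0.41 ± 0.12 (adjusted p = 0.0695). Both passed with DESeq2 (adjusted p = 0.0181 and 0.026), in 26 mice (0.0229 and 0.0248) and in voomWithQualityWeights (0.00323 and 0.00354), which also called *P2ry12* (-0.24, adjusted p = 0.0409) and *Gpr34* (-0.22, adjusted p = 0.0393) lower. Of the 15298 genes tested, DESeq2 called 721 here and voomWithQualityWeights 1631, and 659 of 15278 genes passed in 26 mice. Of the mice left out in turn, those whose absence let *Selplg* pass were WT_GF_199, WT_ABX_911, WT_ABX_923, WT_ABX_932, FAD_ABX_1151 and FAD_ABX_1482, and those for *P2ry13* were WT_GF_199, WT_SPF_928 and FAD_ABX_1482.

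In ABX against GF WT mice 3 of 9 genes were higher, beside 2.4 percent of all genes, and 1 was lower, beside 4.48 percent. All 5 ABX WT mice exceeded all 4 GF WT mice in *Gpr34* (log2 0.44 ± 0.09, adjusted p = 0.00475), *P2ry12* (0.41 ± 0.11, adjusted p = 0.0222) and *P2ry13* (0.40 ± 0.12, adjusted p = 0.0394), and all 5 lay below them in *Selplg* (-0.34 ± 0.08, adjusted p = 0.0166). Border macrophage markers summed to 403 to 579.5 CPM in ABX WT against 645.5 to 793 CPM in GF WT mice, with 6 of the 8 called lower, and oligodendrocyte markers to 161 to 167 against 174 to 187 CPM. Against SPF WT mice (455 to 621 CPM), 5 of the 8 border macrophage markers were called higher in GF WT mice, beside 133 of the 15298 genes tested. The 7 microglial markers summed to 27470 to 33190 CPM in ABX WT, 33910 to 36190 CPM in GF WT and 31400 to 32980 CPM in SPF WT mice. GF WT mice thus lay above both without overlap. *Fcrls* and *C1qb* were called lower in ABX than in GF WT mice, and 0 of the 7 were called between GF and SPF WT mice. The part of these markers in the results was not tested. ABX WT and GF WT mice differ in the form of their descriptions, and most of their calls were lost with GC offsets. There the log2 values were 0.04 for *Gpr34* (adjusted p = 0.8287), 0.07 for *P2ry12* (adjusted p = 0.786) and 0.27 for *P2ry13* (adjusted p = 0.218), and *Selplg* alone was called (-0.32, adjusted p = 0.0438). The call of *P2ry13* was also lost with no low-count filter (0.39, adjusted p = 0.0532), and leaving out single mice ended calls too. The call of *P2ry12* was lost without WT_GF_229, WT_GF_230, WT_GF_231 or WT_ABX_911 (adjusted p 0.0526 to 0.0732), that of *P2ry13* without WT_GF_229, WT_GF_230, WT_GF_231, WT_ABX_909, WT_ABX_910 or WT_ABX_932 (0.0662 to 0.127), and that of *Selplg* without WT_GF_229 (0.0703) or WT_ABX_911 (0.0516). ABX and SPF WT mice, which share 1 form of description, differed in 0 of 9 genes and in 0 percent of all genes, with 687 genes at an unadjusted p under 0.05, 2 called by DESeq2 and 0 by voomWithQualityWeights. *Gpr34*, with a log2 fold change of 0.21 ± 0.08 and an interval from 0.04 to 0.39 (adjusted p = 1), was the only one of the 9 whose interval lay off 0 there. 

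The order of the group means differed between the genes. For *P2ry12*, *P2ry13* and *Gpr34*, GF was the lowest condition in both genotypes, at 8096 ± 470 CPM of *P2ry12* (SD, n = 4) in GF WT against 9523 ± 927 (n = 5) in SPF WT and 10744 ± 821 (n = 5) in ABX WT mice. For *Selplg* GF was the highest condition in both genotypes, at 7764 ± 478 CPM (n = 4) in GF WT and 6404.5 ± 415 (n = 5) in GF 5xFAD mice. For *P2ry12*, *P2ry13*, *Tmem119*, *Cx3cr1*, *Siglech* and *Gpr34* every 5xFAD mean lay below every WT mean. The WT means of *Tmem119* (5049 to 5368 CPM) lay within 1 SD of each other. Neighbouring means of *Siglech*, *Olfml3* and *Sparc* differed by less than the larger SD of the groups.

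Within groups, some of the 9 genes varied together from mouse to mouse. The deviation of log2 CPM from the group mean was correlated over the 28 mice for all 36 pairs, as a description, since all genes of a library share its depth and base composition. Pearson r was highest for *P2ry12* with *P2ry13* (0.846) and with *Gpr34* (0.782), followed by *Siglech* with *Gpr34* (0.745) and *Tmem119* with *Selplg* (0.61). It was lowest for *Tmem119* with *Siglech* (-0.301) and *Gpr34* with *Selplg* (-0.269). The median over pairs was 0.259, so that the signature did not move as a single block within groups. The pairing of *P2ry12* with *Gpr34* joined the 2 genes of lowest GC content. Outside the signature, the genes whose deviations were most like the mean of the 9 members, among 5374 compared over the 28 mice, were *Ptgs1* (r = 0.742, Spearman rho = 0.672), *Lyn* (0.741, 0.657), *Crot* (0.716, 0.645), *Tmem173* (0.714, 0.657) and *Ptpro* (0.712, 0.762).

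**Figure D4:**
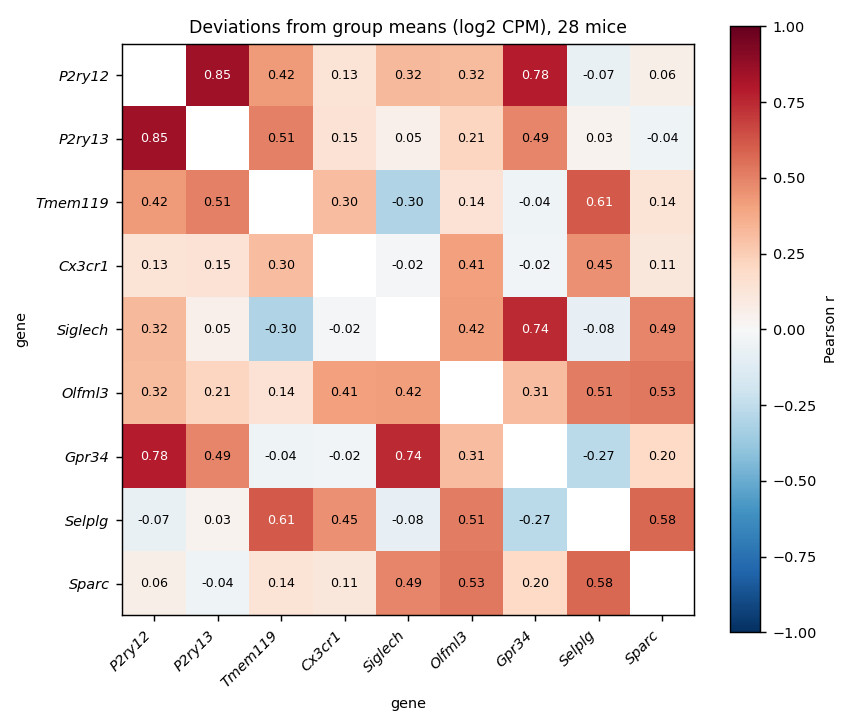
Pearson r between the homeostatic genes, both axes listing the 9 genes, for deviations of log2 CPM from group means over 28 mice. Red cells are positive and blue cells negative, and the deepest red is *P2ry12* with *P2ry13* (0.85) and the deepest blue *Tmem119* with *Siglech* (-0.30).

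A longer list of 39 homeostatic genes, which holds none of the 9, was lower in part. In SPF 5xFAD mice 4 of 39 were lower and 0 higher than in WT mice, in GF mice 17 lower and 1 higher and in ABX mice 13 lower and 1 higher, with median log2 fold changes of -0.25, -0.32 and -0.23. Of all genes, 0.837, 6.2 and 4.98 percent were lower and 3.73, 9.43 and 9.45 percent higher. The largest called falls under GF conditions were those of *Gpr165*, an orphan receptor (log2 -1.49 ± 0.32, adjusted p = 0.00144), *Ecscr* (-0.97 ± 0.11, adjusted p = 2e-07) and *Crybb1*, a crystallin gene (-0.91 ± 0.17, adjusted p = 0.000265). *Ecscr* fell in SPF (-0.60 ± 0.12, adjusted p = 0.00216) and ABX mice (-0.67 ± 0.10, adjusted p = 2.03e-05) as well, while *Crybb1* had -0.43 (adjusted p = 0.259) and -0.08 (adjusted p = 0.792) there. *Gpr165* passed in neither, with -0.56 (adjusted p = 0.564) in SPF and -0.82 (adjusted p = 0.0551) in ABX mice. *Plxdc2* was the only one of the 39 to rise under GF conditions (0.41 ± 0.09, adjusted p = 0.000977). In GF against SPF 5xFAD mice 11 of 39 were lower and 3 higher, beside 5.86 and 6.97 percent of all genes, and in ABX against GF 5xFAD mice 2 were lower and 14 higher, beside 6.07 and 4.52 percent. With voomWithQualityWeights, 17 of 39 were lower and 1 higher in SPF 5xFAD mice, beside 5.63 and 8.45 percent.

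Of the partner genes of the 9 members (ligands, adaptors, ectonucleotidases and related receptors), 11 of 14 passed the low-count filter. In SPF 5xFAD mice 2 were higher, where 3.73 percent of all genes were, namely *Tyrobp*, which encodes the adaptor DAP12 (log2 1.13), and *P2rx4*, an ATP-gated channel (0.37). Both were higher in GF mice (1.83 and 0.70) and in ABX mice (0.95 and 0.55) too. *P2rx7*, another ATP-gated channel, was lower in GF mice (-0.48), and *Gnai2*, a Gi subunit, was higher in ABX mice (0.31). *Entpd1*, whose product degrades ATP and ADP, and *P2ry6*, a UDP receptor, passed in none of the 3 comparisons.

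All 26 genes of an activation list were higher in 5xFAD than in WT mice in each of the 3 conditions, beside 3.73, 9.43 and 9.45 percent of all genes under SPF, GF and ABX conditions. Their median log2 fold changes were 2.20, 2.65 and 1.93, and voomWithQualityWeights called 25 of the 26 under GF conditions. These 26 genes took 2.38 ± 0.091 percent of all reads in SPF WT, 2.57 ± 0.272 in GF WT and 2.37 ± 0.0815 in ABX WT mice (SD, n = 5, 4 and 5), against 5.49 ± 0.53, 7.48 ± 1.10 and 5.16 ± 0.449 percent in 5xFAD mice (n = 3, 5 and 6). In GF against SPF 5xFAD mice 14 of 26 were higher, beside 6.97 percent of all genes, and in ABX against GF 5xFAD mice 22 of 26 were lower, beside 6.07 percent. The group with the highest activation share was thus the one with the lowest share of homeostatic reads. Shares of a library are bound to each other because they sum to the whole. With library totals as the only scaling, 5 of 9 genes were lower in SPF 5xFAD mice, beside 1.41 percent of all genes.

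**Figure D5:**
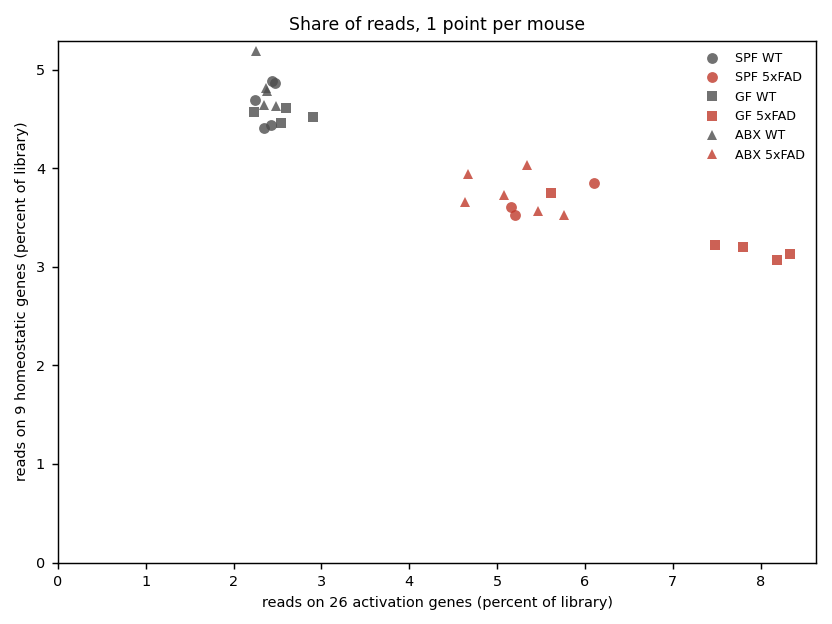
Percent of the reads of each library on the 9 homeostatic genes (vertical axis, from 0) against the percent on 26 activation genes (horizontal axis, from 0), 1 point per mouse (grey WT, red 5xFAD, circles SPF, squares GF, triangles ABX). WT mice sit at the upper left, between 2.24 and 2.90 percent activation reads, and 4 of 5 GF 5xFAD mice at the lower right, with mouse FAD_GF_201 (5.61 percent) among the SPF and ABX 5xFAD mice.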

How the data were processed

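RNA of sorted hippocampal microglia from 28 mice was amplified with a SMARTer v4 kit, made into Nextera XT libraries and read in single-end runs that do not mark the strand. Per the labels and the study's methods, the authors aligned the reads with STAR 2.7.2 and counted them per gene with featureCounts 1.6.2. The methods name GRCm38, the processing notes list GRCh38.p12, and the coordinates in the table match GRCm38 with GENCODE M21. The deposited values are raw counts, used as they are. The length column of the deposited table (summed exon bases) served to scale levels between genes and, in an alternative fit, for gene length offsets. Of 48587 gene symbols, 46484 are in GENCODE M21, and 92 spike-in entries with at most 12 reads in a library were left out. Nothing in the labels says more than that each library is 1 mouse.

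Groups were taken from the titles. Counts were tested in R 4.3.3 with edgeR 4.0.16 (TMM scaling, filterByExpr at a count of at least 10 and a total of at least 15, quasi-likelihood test, 1 term per group, all 28 mice), with Benjamini-Hochberg adjustment over 15298 genes and a threshold of 0.05. Levels are CPM after TMM scaling, and cell type markers are CPM of the library total. Alternatives were RLE factors, library totals alone, no filter, at least 10 counts in every library, DESeq2 1.42.0, voomWithQualityWeights of limma 3.58.1, only the groups compared, 26 mice (without FAD_ABX_1151 and FAD_ABX_1482), gene length offsets, GC content offsets (GC known for 96.7 percent of genes) and each mouse left out in turn. The fit was tested on simulated data. Each of the 9 genes had at least 24846 reads in every library, a counting error of at most 0.634 percent, and its coefficient of variation between mice of a group ran from 0.479 to 20.8 percent. The edgeR p-values rest on spread between mice, estimated in 1 model over all 6 groups with information shared between genes. They do not measure the spread of the groups compared alone.

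All 9 genes are named. From the further homeostatic list, the 3 largest called falls and up to 3 called rises under GF conditions are named, from the partner list those that a count rests on, and for likeness the 5 genes of highest r. The members and lists, and the numbers set beside them, were chosen with earlier results of these data known, so the direction of the lists is not independent evidence.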

Additional observations from a re-analysis of the deposited data

Results flagged for a closer look

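Of 45 sets of a gene and a group of 4 to 6 mice, 1 held a mouse far from the others, where chance alone gives about 1 in 20. *Tmem119* in mouse FAD_GF_201 reached 4421 CPM, against 3033 to 3331 CPM in the other 4 mice, and the gap to the next mouse was 0.785 of the whole range of the group. This is the mouse whose title and description give different genotypes. Its *Cst7* level, 774 CPM, was likewise between those of the other GF 5xFAD mice (at least 1336 CPM) and GF WT mice (at most 17.0 CPM). Without it, the *Tmem119* difference between GF 5xFAD and GF WT mice moved from -0.65 to -0.75 on the log2 scale. *Cx3cr1* was flagged because its 5xFAD difference was not the same in ABX and GF mice by the edgeR interaction test, with a log2 value of 0.49 (0.487; adjusted p = 0.0452). It fell in GF mice by 0.57 on the log2 scale, and in ABX mice its log2 fold change was -0.08 (adjusted p = 0.588).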

How the results depend on the processing

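Of 1634 values from 38 alternatives for 43 results of single genes, 1505 stayed on the same side of the threshold with the same direction, 58 lost the call, 63 gained one and 8 changed direction. The 43 were the comparisons of 5xFAD with WT mice and any others that passed in the main fit or in voomWithQualityWeights. Calls gained outside them, such as that of *Gpr34* in GF against SPF 5xFAD mice with gene length offsets, are not among the 63. In 5xFAD against WT mice under GF and ABX conditions, the numbers called (5 and 4) stayed within 1.5 times. Under SPF conditions, 3 genes became 5 with library totals alone, 7 with voomWithQualityWeights and 1 to 3 with a mouse left out. Without mouse FAD_SPF_1144, *P2ry12* (log2 -0.48), *P2ry13* (-0.48) and *Tmem119* (-0.43) all lost their call in edgeR. The adjusted p-values were 0.0698, 0.107 and 0.0527, and *Cx3cr1* was called instead (-0.51, adjusted p = 0.00304). For GF against SPF 5xFAD mice, 2 genes became 4 with voomWithQualityWeights, 4 with gene length offsets and 1 to 3 with a mouse left out. For ABX against GF 5xFAD mice, 3 became 6 with gene length offsets. For GF against SPF WT mice, 0 became 1 with RLE factors, with at least 10 counts in every library and with gene length offsets, 2 with DESeq2, only the groups compared and 26 mice, 4 with voomWithQualityWeights and 0 to 2 with a mouse left out. For ABX against GF WT mice, 4 became 1 with GC content offsets and 1 to 4 with a mouse left out. The difference of the 5xFAD effect between ABX and GF mice kept 1 gene or 0, with 0 for only the groups compared and gene length offsets and 0 to 1 with a mouse left out. Directions turned for values that had passed no edgeR test, of which *Gpr34* passed with voomWithQualityWeights. They were *Olfml3* in GF 5xFAD mice (0.0455 with gene length offsets), *Sparc* there (-0.0769 with library totals alone, -0.016 to 0.0859 with a mouse left out), *Gpr34* in GF against SPF WT mice (0.0347 with GC offsets), and, with a mouse left out, *Olfml3* (-0.0897 to 0.0201) and *Selplg* (-0.11 to 0.0235) in ABX 5xFAD mice. The causes were not tested. Over all genes, SPF 5xFAD mice gave 699 calls in edgeR and 2154 in voomWithQualityWeights, GF against SPF 5xFAD mice 1962 and 3872, GF against SPF WT mice 248 and 1631 (721 in DESeq2), and ABX against GF WT mice 1053 and 2025 (1618 in DESeq2). With library totals alone, GF 5xFAD against WT mice gave 1107 higher and 1919 lower calls, against 1442 and 949 with TMM. The split also moved for 5xFAD against WT mice under SPF (571 and 128 to 533 and 215) and ABX conditions (1445 and 762 to 1160 and 1311), for GF against SPF 5xFAD mice (1066 and 896 to 626 and 1295) and for ABX against GF 5xFAD mice (692 and 929 to 1173 and 554). No paired analysis was possible because no mouse number is shared between groups. The SPF calls of *P2ry12* and *P2ry13* lay near the threshold, and their log2 fold changes without each mouse whose absence ended the call were between -0.48 and -0.39.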
